A study of Mus musculus with 14 samples.

Results

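Killer cell lectin-like receptors are C-type lectin-like surface proteins first described on natural killer (NK) cells, and effector CD8+ T cells can carry several of them. Described here are 7 of these receptor genes, Klrg1, Klrb1c, Klra3, Klre1, Klrd1, Klrk1 and Klrc1, out of 19937 genes that had a probe set with a single gene name. They were chosen with earlier results of these data known, and their probe sets were found by gene symbol. Each had 1 such probe set: 10547590 for Klrg1, 10548307 for Klrb1c, 10548535 for Klra3, 10542205 for Klre1, 10542214 for Klrd1, 10548345 for Klrk1 and 10548409 for Klrc1. The cells were mouse OT-I CD8+ T cells, which carry a transgenic receptor for a peptide of ovalbumin, sorted on day 6 of infection with Listeria that expresses ovalbumin. RNA from each sort was hybridised to 1 of 14 single-colour arrays. The groups were wild-type (WT) KLRG1hi cells (3 arrays), Id2KOBimKO KLRG1lo, Id2KO KLRG1lo and BimKO KLRG1lo cells (2 arrays each) and WT KLRG1lo cells (5 arrays). All groups came from fetal liver chimeras whose cells were moved into congenic recipients before infection, all were labelled C57BL/6J, and all knockout arrays held KLRG1lo cells. The labels do not say how the alleles were deleted, or whether replicates came from separate animals, so the p-values speak only of the variation among these sorts, which may be technical.

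Receptors of this family act in opposite ways. KLRG1, which binds cadherins, Ly49C (the product of Klra3), which binds classical MHC class I, and the pair of CD94 (Klrd1) with NKG2A (Klrc1), which binds Qa-1, carry inhibitory tyrosine motifs or pair with a chain that does, and recruit phosphatases. NKG2D (Klrk1), which binds stress-induced ligands, and NK1.1 (Klrb1c) activate through adaptors, and KLRE1 has no signalling motif of its own and pairs with KLRI1 or KLRI2. In CD8+ T cells KLRG1 is known as the marker of terminal effector cells, and Id2 is known as an inhibitor of the DNA-binding E proteins, which recognise the E-box sequence.

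E proteins act at the E-box CANNTG (N is any base), so 3 promoters are shown with that motif in capitals, those of Klrb1c and Klra3, which were called between the sorted WT populations, and of Klre1, which was clear of background only on KLRG1hi arrays. They are the 250 bases before the start of each gene in RefSeq, in GRCm38.p6 coordinates, 5′ to 3′ on the strand of the gene. The Klrb1c promoter is chr6:128788642-128788891 on the minus strand, the Klra3 promoter is chr6:130337627-130337876 on the minus strand, and the Klre1 promoter is chr6:129577963-129578212 on the plus strand.
Klrb1c: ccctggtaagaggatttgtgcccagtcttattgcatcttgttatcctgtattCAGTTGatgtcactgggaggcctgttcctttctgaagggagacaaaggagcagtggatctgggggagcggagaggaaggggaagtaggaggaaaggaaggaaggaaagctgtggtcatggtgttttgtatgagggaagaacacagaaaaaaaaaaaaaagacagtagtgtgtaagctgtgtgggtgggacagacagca
Klra3: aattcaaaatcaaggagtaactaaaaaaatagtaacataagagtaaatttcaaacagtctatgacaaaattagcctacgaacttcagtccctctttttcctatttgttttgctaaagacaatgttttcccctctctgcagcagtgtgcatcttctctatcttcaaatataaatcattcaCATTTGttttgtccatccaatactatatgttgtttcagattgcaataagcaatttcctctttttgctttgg
Klre1: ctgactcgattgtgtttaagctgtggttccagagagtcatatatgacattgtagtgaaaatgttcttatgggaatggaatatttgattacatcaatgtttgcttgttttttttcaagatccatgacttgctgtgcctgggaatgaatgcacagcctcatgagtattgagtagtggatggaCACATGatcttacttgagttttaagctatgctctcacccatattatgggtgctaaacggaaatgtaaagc

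Each of these promoters held 1 E-box. It lay at position -198 in Klrb1c, -71 in Klra3 and -70 in Klre1, counted from the start of the gene. Both strands were searched, and the E-box pattern is the same on both. A promoter entry was found for 5 members, and those of Klrc1 and Klrk1 also held 1 E-box each, at -30 and -194. Of 32851 promoters of this length, 66.2% held at least 1, so the match is common. The T-box core AGGTGT, searched also as ACACCT, was in none of the 6 member promoters (Klre1 has 2 starts), against 11.8% of all promoters, and an E-box can share bases with it. The Runx site TGTGGT, searched also as ACCACA, occurred in those of Klrb1c, Klrc1, Klrk1 and the first Klre1 start, against 14.05% of all. Klrg1 and Klrd1 had no match by symbol.

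A signal was called clear of background where it exceeded the 95th percentile of 1035 olfactory receptor probe sets on the same array, a limit of 5.36 to 5.67 on the log2 scale. It was called at background where it was at or under the median of probe sets without a gene name, 5.01 to 5.39. On this scale Klrd1, Klrk1 and Klrc1 were clear on all 14 arrays, and Klrg1 and Klrb1c on 13 each. Klra3 was clear on 5 arrays, 3 of them KLRG1hi. Klre1 was clear on the 3 KLRG1hi arrays and at background on all 11 KLRG1lo arrays. Levels of different probe sets are not compared, and in sorted bulk RNA a change in the share of cells with a transcript and a change in RNA per cell cannot be told apart.

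Of the targeted genes, Id2 had a log2 signal of 9.64 to 9.88 on the 4 Id2KOBimKO and Id2KO arrays, against 10.75 to 11.66 on the other 10. Bcl2l11, which encodes Bim, ran from 7.36 to 8.01 on the 4 Id2KOBimKO and BimKO arrays, against 7.44 to 7.92 in WT KLRG1lo cells, so it was not lower on the arrays labelled Bim-deficient. Where either probe set lies with respect to the deletion is not known here, so Bim status rests on the label. The Id2KO arrays also stood apart in sex-linked transcripts: Xist was 4.47 to 4.99 there, against 8.37 to 10.36 on the other 12 arrays, and Y-linked Eif2s3y was 7.39 to 8.20, against 2.92 to 3.66. The sex of the donors and the Id2KO label cannot be told apart in any comparison with the Id2KO group. The closest 2 arrays of all, with a correlation of 0.992 across genes, were Id2KO replicate 1 and Id2KOBimKO replicate 1, whereas arrays of 1 group correlated at 0.915 to 0.984. All 8 markers of CD8 T cells were clear of background on every array. Of 11 listed NK cell markers 10 were on the array, 5 were clear on no array (Ncr1, Klra8, Klri2, Khdc1a and Ncam1), and Ncr1, which defines NK cells, was at background on all 14. Tyrobp was clear on all 14 and Klrb1b on 12. Fcer1g, Kit and Styk1 were clear on part of the arrays, among them every KLRG1hi array. The NK markers that were clear numbered 5 on each KLRG1hi array and 2 to 5 on WT KLRG1lo arrays. The summed linear signal of the NK markers was 428 to 547 on KLRG1hi arrays, 319 to 393 on Id2KOBimKO arrays, 318 to 350 on Id2KO arrays, 356 to 534 on BimKO arrays and 363 to 616 on WT KLRG1lo arrays.

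WT KLRG1hi cells had more Klrb1c and Klra3 RNA than WT KLRG1lo cells. Of the other members, Klrg1 was set by the sorting gate, and Klre1 passed the filter on low signal only through the KLRG1hi arrays, so it had to differ once tested. These genes are described below, and their calls are not counted. Of the 5 members that remain, 2 were called (adjusted p under 0.05 in limma), Klrb1c and Klra3, both higher, while 0.942% of the 14438 genes tested were called and 0.679% were called higher. All 5 had an unadjusted p under 0.05, as did 7.2% of genes tested. All 5 had a positive difference, with a median of 0.67 on the log2 scale, against 0.002 over all genes tested. The median was the same with Klra3 at its bound, which is given below. Since the members were chosen with earlier results of these data known, these shares describe the list and are no test of it. Of 4 other lectin-like receptor genes tested, 0 were called higher and 1 was called lower, with a median difference of 0.08. For Klrb1c and Klra3 every KLRG1hi array lay above all 11 KLRG1lo arrays of any genotype, which held for 1.41% of genes tested. The summed linear signal of 6 B cell markers was 205 to 277 on KLRG1hi arrays, against 274 to 926 on WT KLRG1lo arrays, and its part in the receptor differences was not tested. None of the NK, B cell, monocyte, neutrophil or gamma delta T cell markers passed between these populations.

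Klrg1 is given as a description of the gate. Its log2 signal was 10.51, 11.09 and 11.52 on the KLRG1hi arrays, against 6.11, 6.74, 6.39, 6.12 and 6.02 on the WT KLRG1lo arrays. The difference between the means was 4.76, a 27.2-fold higher signal. Among KLRG1lo cells the signal was 5.24 and 6.82 in Id2KOBimKO, 5.48 and 5.70 in Id2KO and 5.95 and 5.85 in BimKO, so all KLRG1lo groups lay below the KLRG1hi population, and 10 of the 11 arrays were still clear of background. The Id2KO difference from WT KLRG1lo cells was -0.69 (SE 0.32, adjusted p = 0.275), within the low gate.

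Klrb1c, the gene of the activating receptor NK1.1, had log2 signals of 8.94, 9.63 and 10.54 on the KLRG1hi arrays, against 6.71, 7.07, 6.48, 7.10 and 6.53 on the WT KLRG1lo arrays. The 2 sets did not overlap. The mean was 9.70 ± 0.80 in KLRG1hi cells (SD, n = 3), against 6.78 ± 0.30 in WT KLRG1lo cells (SD, n = 5). The difference was 2.92 (SE 0.29, 95% interval 2.31 to 3.53, adjusted p = 3.12e-05), or 7.59-fold. All WT KLRG1lo arrays were clear of background, so both sides of this ratio were measured.

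Klra3, the gene of Ly49C, read 6.52, 7.41 and 8.02 on the KLRG1hi arrays, against 5.28, 5.28, 5.06, 5.27 and 5.005 on the WT KLRG1lo arrays. No WT KLRG1lo array was clear of background for it. The means were 7.32 ± 0.75 (SD, n = 3) and 5.18 ± 0.14 (SD, n = 5) and the fitted difference was 2.14 (SE 0.25, adjusted p = 0.000167). Since WT KLRG1lo gives only a bound, Klra3 was by the group means at least 3.38-fold higher in KLRG1hi cells, the bound being the background limit of each array. This fold is a point estimate and carries no sampling error. A family of near-identical Klra genes shares parts of this sequence, and the probe sets that name several of them are not assigned to any, so the identity of the Klra3 signal is less certain than that of the other members.

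Klre1 read 6.04, 5.73 and 5.38 on the KLRG1hi arrays, against 4.09, 4.45, 3.73, 3.77 and 4.13 on the WT KLRG1lo arrays. The means were 5.71 ± 0.33 (SD, n = 3) and 4.03 ± 0.30 (SD, n = 5). All WT KLRG1lo values were at background and the KLRG1hi values only just clear. By the group means Klre1 was at least 1.11-fold higher in KLRG1hi cells, the bound taken as for Klra3. KLRG1hi replicate 3, at 5.38, lay under the mean WT KLRG1lo limit of 5.56, so the bound does not hold for each array. The filter fixed that Klre1 would differ, and the bound is a description with no test. The genes of the 2 partners of KLRE1, Klri1 and Klri2, were clear of background on no array.

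The 3 members that were clear on every array did not pass. Klrd1, the gene of CD94, read 10.40, 10.56 and 10.89 on the KLRG1hi arrays, against 10.001, 10.43, 10.01, 10.02 and 10.08 on the WT KLRG1lo arrays. KLRG1hi replicate 1 lay below WT KLRG1lo replicate 2, and the difference of 0.51 (SE 0.16, 95% interval 0.17 to 0.85) had an adjusted p of 0.235. Klrc1, the gene of the inhibitory partner NKG2A, read 9.83, 10.06 and 11.23 on the KLRG1hi arrays, against 9.64, 10.02, 9.35, 9.70 and 9.81 on the WT KLRG1lo arrays. Its difference was 0.67 (SE 0.27, 95% interval 0.11 to 1.23, adjusted p = 0.504). Klrk1, the gene of NKG2D, read 9.22, 9.44 and 10.40 on the KLRG1hi arrays, against 9.35, 9.71, 8.60, 8.55 and 8.88 on the WT KLRG1lo arrays, a difference of 0.67 (SE 0.28, 95% interval 0.08 to 1.26, adjusted p = 0.556). For Klrk1 and Klrc1 only KLRG1hi replicate 3 lay above every KLRG1lo array.

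The 3 KLRG1hi arrays varied in a like order for most members. Replicate 3 gave the highest of the KLRG1hi values for 6 of the 7 members, the exception being Klre1, and did so for 43.2% of all genes tested. Its part in the differences was measured by leaving it out: without it, the differences of Klrb1c (2.51) and Klra3 (1.79) stayed past the threshold. Those of Klrc1 and Klrk1 were 0.24 and 0.31 without it, against 0.67 each with it, and passed in neither case. The Klrk1 difference also depended on the WT KLRG1lo arrays used. It was 0.16 against WT KLRG1lo replicates 1 and 2 alone, which read 9.35 and 9.71. Against the remaining WT KLRG1lo arrays alone it was 1.01. Klrk1 passed in neither of these fits.

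**Figure D1:**
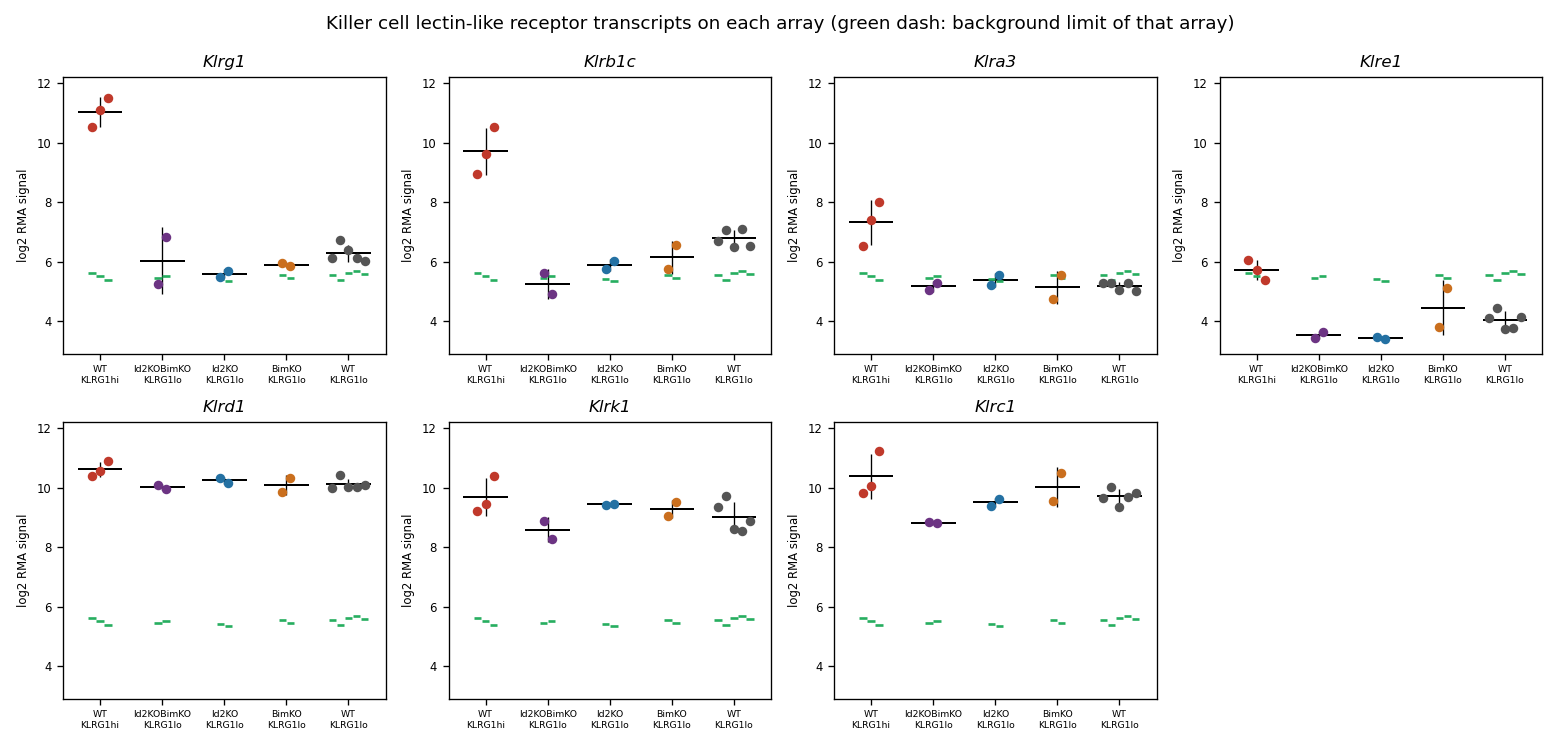
log2 signal (vertical axis) of each of the 7 receptor genes on each array, by group (horizontal axis). Points are arrays, black lines group means, vertical lines ± SD and green dashes the background limit of that array. The KLRG1hi points of Klrg1, Klrb1c, Klra3 and Klre1 lie above every other point of their panel.

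The knockout groups were compared with WT KLRG1lo cells, and Id2KOBimKO with its single knockouts, to ask what loss of Id2 and of Bim does to these transcripts within the KLRG1lo gate. No member passed in any of these comparisons with limma, and the group values are given below as measurements. For Id2KOBimKO against WT, 0 of 7 members passed (0.0623% of genes tested were called) and 2 had an unadjusted p under 0.05 (3.95% of genes), Klrb1c and Klrc1. Klre1 was at background in every KLRG1lo group, so the unadjusted counts here and the counts of arrays that lie apart are over the other 6 members. For Id2KO against WT, 0 of 7 passed (0.111% called) and 2 had an unadjusted p under 0.05, Klrb1c and Klrg1, while 18.1% of all genes did. For BimKO against WT, 0 passed (0.0% called) and none had an unadjusted p under 0.05 (6.91% of genes). For Id2KOBimKO against BimKO, 0 passed (0.0% called) and 2 had an unadjusted p under 0.05 (1.81% of genes), Klrb1c and Klrc1. For Id2KOBimKO against Id2KO, 0 passed (0.0277% called) and 1 had an unadjusted p under 0.05 (0.803% of genes), Klrk1. The medians of the differences of these 6 from WT were -0.34 in Id2KOBimKO, -0.04 in Id2KO and -0.03 in BimKO cells, against -0.002, 0.03 and -0.02 over all genes tested. The Id2KO median depends on Klra3, which was at or near background in both groups compared, so no direction is read from that median.

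Klrb1c read 5.61 and 4.90 in Id2KOBimKO, 5.74 and 6.03 in Id2KO and 5.76 and 6.54 in BimKO cells, against 6.48 to 7.10 in WT KLRG1lo cells. Of the 6 knockout arrays 5 lay below every WT KLRG1lo array, which happened for 5.6% of genes tested, and the other, BimKO replicate 2, lay within the WT range. Klrg1, the gene set by the gate, also had 5 of the 6 below every WT KLRG1lo array and 1 above. For Klrb1c, Id2KOBimKO replicate 2, at 4.90, was at background, and the other 5 knockout arrays were clear. The difference from WT was -1.52 (SE 0.33, 95% interval -2.22 to -0.83, adjusted p = 0.177) in Id2KOBimKO, -0.89 (SE 0.33, adjusted p = 0.275) in Id2KO and -0.63 (SE 0.33, adjusted p = 0.657) in BimKO. With each value under the limit of its array set to that limit, the Id2KOBimKO difference was -1.22. The WT arrays are shared by these comparisons. In the order of means, WT KLRG1lo and BimKO overlapped, as did BimKO and Id2KO, while Id2KO and Id2KOBimKO did not overlap on 2 arrays each. The call depended on the processing for Id2KOBimKO against WT: the adjusted p was 0.0331 in a fit on only the groups compared and 0.00374 with array spread (the interquartile range of its log2 values) as a covariate. That spread averaged 2.65 in WT KLRG1hi, 2.71 in Id2KOBimKO, 2.85 in Id2KO, 2.66 in BimKO and 2.60 in WT KLRG1lo arrays.

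Klrc1 read 8.84 and 8.81 in Id2KOBimKO cells, below 9.39 and 9.62 in Id2KO, 9.55 and 10.49 in BimKO and 9.35 to 10.02 in WT KLRG1lo cells. The Id2KOBimKO arrays lay below all others. The difference was -0.88 (SE 0.31, 95% interval -1.53 to -0.24, adjusted p = 0.785) from WT and -1.20 (SE 0.37, adjusted p = 0.9999) from BimKO. The difference from BimKO was -1.67 without BimKO replicate 1 and -0.72 without BimKO replicate 2, and passed in neither case. For Id2KOBimKO against WT the arrays lay apart, lower, for 2 of the 6 members, Klrb1c and Klrc1, and for 7.27% of genes tested. The same held for 2 of 6 in Id2KO against WT (14.2% of genes), Klrb1c and Klrg1, and for 1 of 6 in BimKO against WT (6.99%), Klrg1. It held for 3 of 6 in Id2KOBimKO against BimKO (12.0%), Klrb1c, Klrc1 and Klrk1. In Id2KOBimKO against Id2KO it held for 4 of 6 (21.0%), these and Klrd1.

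Klrk1 read 8.89 and 8.29 in Id2KOBimKO, 9.43 and 9.45 in Id2KO, 9.06 and 9.50 in BimKO and 8.55 to 9.71 in WT KLRG1lo cells. Every neighbouring pair of groups in the order of means overlapped. The Id2KOBimKO arrays nevertheless lay below all Id2KO and all BimKO arrays. The interaction of Id2 and Bim was -1.11 (SE 0.50, adjusted p = 0.726) for Klrk1 and -0.99 (SE 0.48) for Klrc1, against -0.01 (SE 0.52) for Klrb1c, and 0 of 7 members passed it (0.0277% called), with 1 at an unadjusted p under 0.05 (4.27% of genes). Over the alternative settings the interaction ran from -1.45 to -0.47 for Klrk1 and from -1.46 to -0.52 for Klrc1, and passed in none of them.

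Klrd1 read 10.09 and 9.94 in Id2KOBimKO, 10.32 and 10.16 in Id2KO, 9.86 and 10.33 in BimKO and 10.001 to 10.43 in WT KLRG1lo cells. Its differences from WT were -0.10, 0.13 and -0.01 in the same order of knockouts, with all 95% intervals within -0.48 to 0.52.

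Klra3 and Klre1 were at or near background in KLRG1lo cells of every genotype. Klra3 read 5.04 and 5.28 in Id2KOBimKO, 5.21 and 5.54 in Id2KO and 4.75 and 5.53 in BimKO cells, and 2 of the 11 KLRG1lo arrays were clear of background. Klre1 read 3.43 and 3.62 in Id2KOBimKO, 3.48 and 3.38 in Id2KO and 3.80 and 5.10 in BimKO cells, all at background. Values at background have no order, so no direction is read from them. BimKO replicate 2 gave the highest KLRG1lo value of Klrc1, 10.49. It was also high in the adaptor genes Tyrobp (7.55) and Fcer1g (6.60), both among the listed NK cell markers. WT KLRG1lo replicate 4 was higher still in both (7.77 and 6.84), with Klrc1 at 9.70. The summed linear signal of the NK cell markers was 356 to 534 on BimKO arrays. It was 346 to 610 for monocyte and macrophage markers and 265 to 933 for B cell markers. The part of other cells in the Klrc1 values was not tested.

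The mean Id2 effect over both Bim backgrounds was -0.89 (SE 0.26, adjusted p = 0.423) for Klrb1c and -0.70 (SE 0.24, adjusted p = 0.617) for Klrc1. No member passed (0.18% of genes were called), and these 2 of the 6 members had an unadjusted p under 0.05 (7.11% of genes). With array spread as a covariate Klrb1c (-1.28), Klrc1 (-1.05) and Klrk1 (-0.61) passed. Under that setting 27 of the 14438 genes tested were called higher and 25 lower. Without the covariate the mean Id2 effect for Klrk1 was -0.14 (SE 0.25, adjusted p = 0.811).

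**Figure D2:**
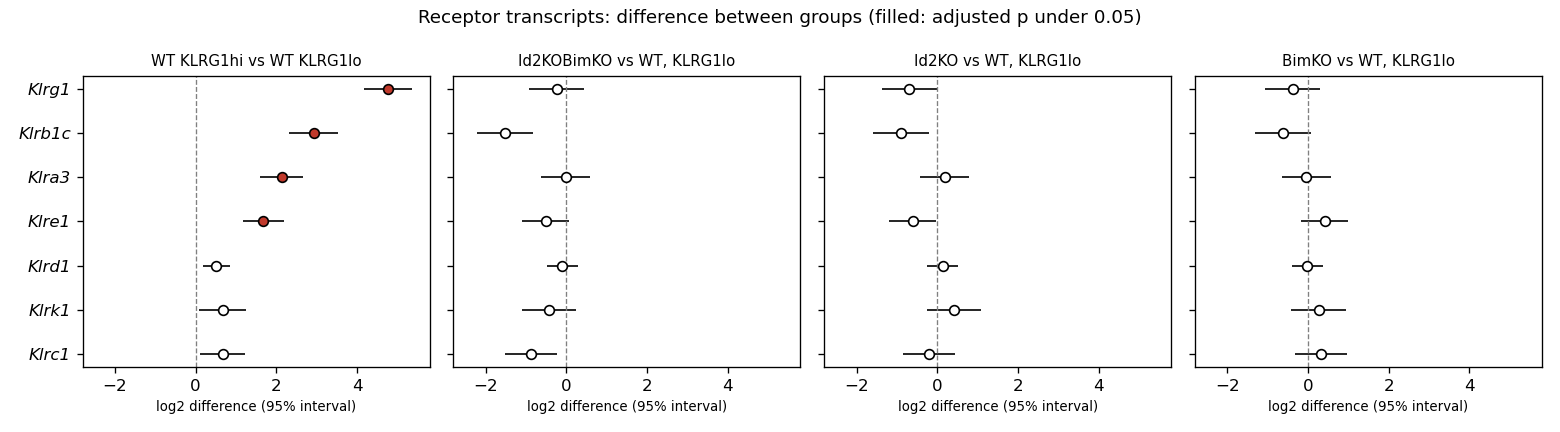
Difference in log2 signal (horizontal axis) for each receptor gene (vertical axis) in 4 comparisons, with 95% intervals from limma. Filled points passed at an adjusted p under 0.05, which occurs for 4 genes in WT KLRG1hi against WT KLRG1lo and for no gene in the 3 knockout panels. Of those 4, Klrg1 was set by the sorting gate and Klre1 was fixed by the filter, and their calls are not counted.

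Other lectin-like receptor genes lie beside the members on chromosome 6. Of 27 listed genes 15 had a probe set with a single name, 4 passed the filter (Klrb1b, Klrb1f, Klrc2 and Klrc3) and 11 were clear of background on no array. Klrb1f fell by 0.81 on the log2 scale in KLRG1hi cells (SE 0.15, adjusted p = 0.0106), at 5.40 ± 0.20 (SD, n = 3) in KLRG1hi, against 6.21 ± 0.18 (SD, n = 5) in WT KLRG1lo cells. It ran opposite to its relative Klrb1c, and only 1 of the 3 KLRG1hi arrays was clear of background for it. With each value under the limit of its array set to that limit, the difference was -0.64. The call was lost against WT KLRG1lo arrays 1 and 2 alone (adjusted p = 0.292) and without WT KLRG1hi replicate 2 (adjusted p = 0.0739). Klrc2, which encodes the activating partner NKG2C of CD94, was clear on all arrays and had a difference of 0.04, and Klrc3 had one of 0.79 (adjusted p = 0.56). Neither passed.

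**Figure D3:**
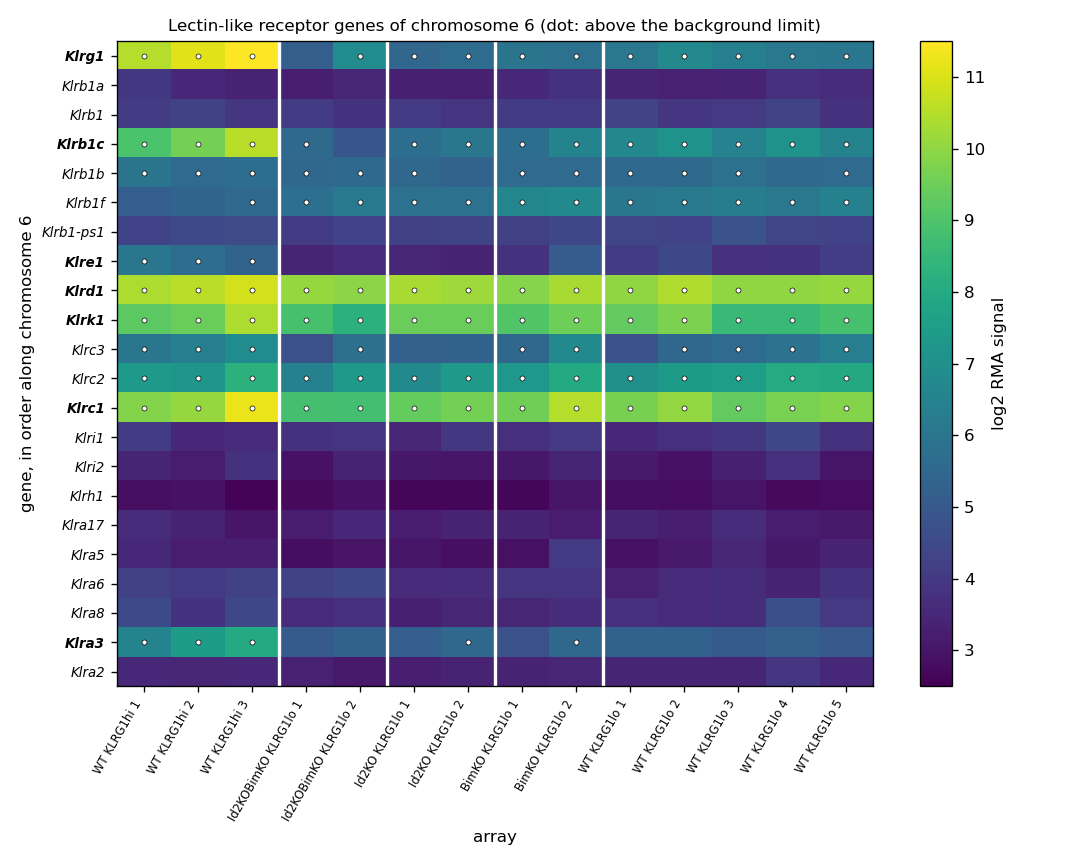
log2 signal (colour) of 22 lectin-like receptor genes in their order along chromosome 6 (rows) on each array (columns), with white lines between groups. Member names are bold and dots mark values above the background limit of the array. Klrg1, Klrb1c, Klra3 and Klre1 differ in colour between WT KLRG1hi and the KLRG1lo groups, and all Klra neighbours shown lie below the limit throughout.

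The adaptors and phosphatases through which these receptors signal were set beside them. Between the WT populations, of 13 adaptor and kinase genes tested 0 passed, nor did any of 3 phosphatase genes. Tyrobp, which encodes the adaptor DAP12, was 7.11 ± 0.44 (SD, n = 3) in KLRG1hi, against 6.90 ± 0.49 (SD, n = 5) in WT KLRG1lo cells. Hcst, which encodes DAP10, the partner of NKG2D, was 8.02 ± 0.25 (SD, n = 3), against 7.83 ± 0.27 (SD, n = 5). Fcer1g, an adaptor gene that was chosen after its values were seen, was 6.49 ± 0.58 (SD, n = 3), against 5.65 ± 0.70 (SD, n = 5), a difference of 0.84 (SE 0.42, adjusted p = 0.757) that did not pass. Ptpn6, which encodes the phosphatase SHP-1, was 10.08 ± 0.27 (SD, n = 3), against 10.03 ± 0.32 (SD, n = 5). Of 11 ligand genes on the array 8 were tested and 0 passed, and a value for H2-T23 (Qa-1) is not given. Among 9 other NK receptors tested 1 rose, Cd244a (2B4), by 1.45 (SE 0.30, adjusted p = 0.0259), at 6.92 ± 0.79 (SD, n = 3) in KLRG1hi, against 5.47 ± 0.32 (SD, n = 5) in WT KLRG1lo cells, where 1 of 5 arrays was clear of background. With each value under the limit of its array set to that limit, the difference was 1.30. Over 25 alternatives Cd244a stayed past the threshold in 18, and leaving out a single array ended the call for WT KLRG1hi replicates 2 (adjusted p = 0.0771) and 3 (adjusted p = 0.0827). It did so as well for WT KLRG1lo replicates 1, 3 and 5, at adjusted p = 0.0588, 0.0562 and 0.0654. The call was also lost against WT KLRG1lo arrays 1 and 2 alone (adjusted p = 0.126) and against arrays 3 to 5 alone (adjusted p = 0.0679).

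**Figure D4:**
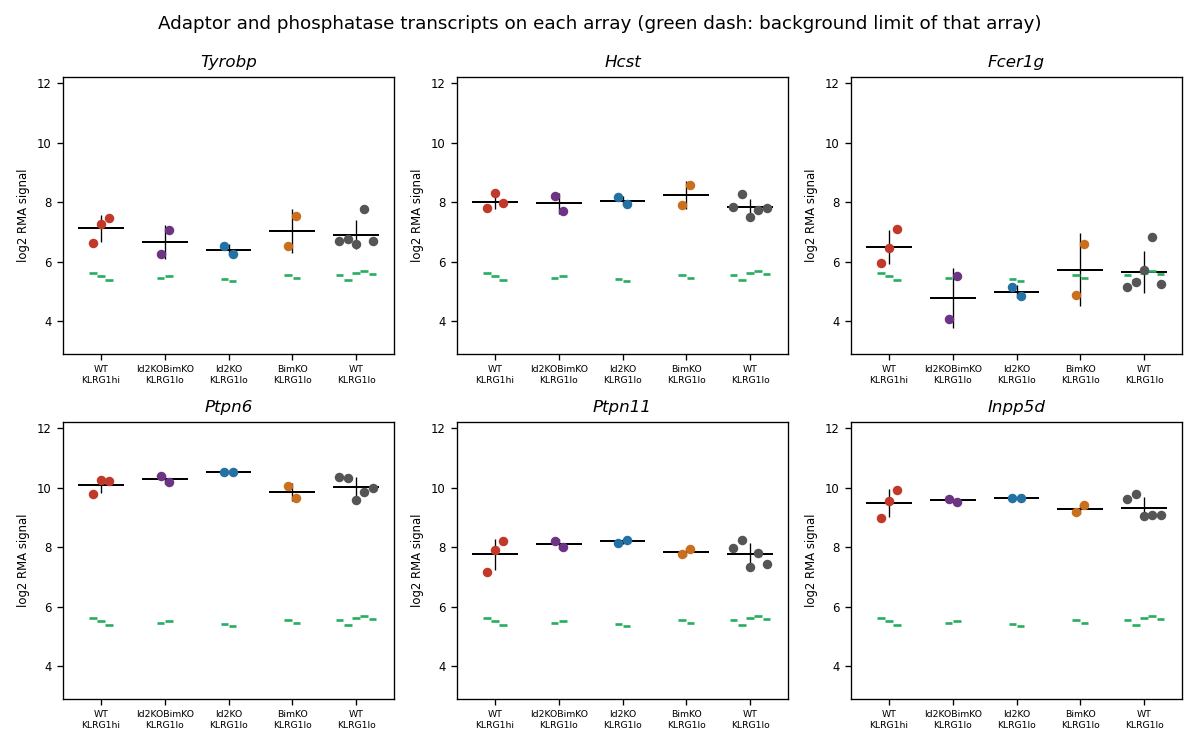
log2 signal (vertical axis) of 3 adaptor and 3 phosphatase genes on each array, by group (horizontal axis). Points, lines and dashes are as in the plot of the receptors. The KLRG1hi and WT KLRG1lo points overlap for every gene shown.

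The genes whose pattern over the 14 arrays lay closest to Klrg1, Klrb1c, Klra3 and Klre1 were found by the root mean square distance between mean-centred log2 profiles. Of these, the step of Klrg1 was set by the sorting gate, and that of Klre1 was fixed by the filter. For Klrg1 they were Klrb1c (0.908), Cx3cr1 (1.07) and S1pr5 (1.24), where the median over all genes was 2.11. For Klrb1c they were Cx3cr1 (0.511), S1pr5 (0.688) and Zeb2 (0.767), with a median of 1.58. For Klra3 they were Gpx8 (0.307), As3mt (0.326) and Gzma (0.360), with a median of 0.959. For Klre1 they were H1f5 (0.335), Kif11 (0.364) and H4c6 (0.370), with a median of 0.898. Klre1 was at background on all 11 KLRG1lo arrays and Klra3 was clear on 2 of them. No shared pattern among KLRG1lo arrays is therefore read for either gene. Klrg1 and Klrb1c shared Cx3cr1, the fractalkine receptor gene, and S1pr5, a sphingosine phosphate receptor gene, among their nearest genes.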

How the data were processed

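The deposited values, an intensity on a linear scale, were made by the authors with RMA, and mm9 is the assembly, per the submitters' processing notes. RNA was amplified before biotin labelling and hybridisation, per the labels' protocols. All 34760 probe sets on 14 arrays were taken as log2 with no offset, and no further normalization was applied. Of these 21640 carried a single gene name in an older platform annotation, updated through RefSeq by Entrez number. The probe set with the highest mean stood for each of 19937 genes, and 14438 genes were tested, those whose signal exceeded the 40th percentile on 2 arrays or more. A model of 5 group means over all 14 arrays was fitted with limma 3.58.1 in R 4.3.3 (9 residual and 7.99 prior degrees of freedom), with two-sided tests and Benjamini-Hochberg adjustment over these genes at 0.05. Every p printed is from limma and adjusted unless called unadjusted. The script was tested on simulated data. Each group's number of arrays limits the precision, and scanner files were not used here.

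The members, gene lists and tests were chosen with earlier results of these data known. All members were named. Of related lists, genes that passed were named, with Tyrobp, Hcst, Ptpn6 and H2-T23 whatever their result, and for each member that passed the 3 nearest genes, leaving out predicted and clone names. Fcer1g, Klrc2, Klrc3 and the neighbours at background were added after their values were seen. Alternatives were other filters, quantile normalization, a robust trend, a replicate block, only the groups compared, probe set means, an offset of 16, array spread as a covariate, part of the WT KLRG1lo arrays, and each array left out. The runs for Klrb1f and Cd244a and the differences with low values set to the limit of the array were added after the data were seen. Python 3.11.15 drew the figures with matplotlib 3.10.9.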

Additional observations from a re-analysis of the deposited data

Results flagged for a closer look

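In the WT KLRG1lo group, Klrd1 of replicate 2 stood away from the other 4 arrays, at 10.43 against 10.001 to 10.08. The gap to the nearest of them took 0.812 of the whole range, above the critical value of 0.71 for 5 arrays. Of 7 members tested in this group it was the single one past the limit. Chance gives about 1 in 20 for each member tested, and more over 7 members. Replicate 2 was also the highest WT KLRG1lo array for Klrg1, Klrk1 and Klrc1, though not for Klrb1c. Its spread of 2.82 was the widest of the group.

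A probe set that names 5 Klra genes, and so was left out of the comparisons, was higher in WT KLRG1hi than in WT KLRG1lo cells by 1.638 on the log2 scale. It read 5.05, 5.74 and 5.82 on the KLRG1hi arrays, against 3.52 to 4.17 on all 11 KLRG1lo arrays, and 2 of the 3 KLRG1hi arrays were clear of background. No WT KLRG1lo array was, so 1.638 is not the size of a measured change. The KLRG1hi mean of 5.53 lies under the mean background limit of the WT KLRG1lo arrays, 5.56, so no fold is given. Which of the 5 genes gave the signal cannot be told from it. A probe set that names 7 genes read 4.13, 5.75 and 5.72 on the KLRG1hi arrays, against 3.49 to 4.30 on all KLRG1lo arrays, and so overlapped them. One that names 3 genes was clear on no KLRG1hi array.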

How the results depend on the processing

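Over 25 alternative settings the KLRG1hi against WT KLRG1lo difference ran from 2.51 to 3.31 for Klrb1c and 1.76 to 2.53 for Klra3, past the threshold in all 25. For Klrg1, which was set by the gate, it ran from 4.50 to 5.03. The filter decides whether Klre1 is tested at all, and at the 60th percentile it was left out. With array spread as a covariate Klrd1 (0.46, adjusted p = 0.0434) and Klrk1 (0.52, adjusted p = 0.0304) also passed. Under it 223 of the 14438 genes tested were called higher and 153 lower, against 98 and 38 in the main fit. For Id2KOBimKO against WT the count of members past the threshold was 1 in a fit on only the groups compared, 2 with array spread as a covariate (Klrb1c and Klrk1) and 0 to 1 with an array left out. The fit on only the groups compared called 5 of 14024 genes higher and 3 lower. With the covariate 15 of 14438 were called higher and 9 lower. Klrb1c passed in this comparison without WT KLRG1hi replicate 1 (adjusted p = 0.0465) and without WT KLRG1hi replicate 3 (adjusted p = 0.0259). For the mean Id2 effect it was 3 with array spread as a covariate and 0 to 1 with an array left out, the 1 being Klre1 without BimKO replicate 1, at background on all these arrays, so no direction is read. In a model of group means, leaving out a KLRG1hi array cannot alter the Id2KOBimKO difference from WT KLRG1lo cells. It alters only the variance estimate and the genes tested. For the other settings, apart from fewer arrays or genes, the cause was not tested. A replicate block kept Klrb1c (2.95) and Klra3 (2.11) past the threshold between KLRG1hi and WT KLRG1lo. Klrg1 (4.63), set by the gate, and Klre1, fixed by the filter, are not counted. The block gave 0 members in each other comparison, and Klrb1f had an adjusted p of 0.091 under it. The deviations of 21 same-numbered pairs correlated at -0.52 to 0.41, 10 of them over 0.1, so the numbers were not taken to pair samples. Low signal limits Klra3 and Klre1, which lay at or near background in KLRG1lo cells.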
